A study of Mus musculus with 6 samples.

Results

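Pdk2, Cycs, Ndufa7 and Dele1 encode proteins of mitochondrial energy supply and mitochondrial stress signalling, and their probe sets stood on the authors' deposited list of transcripts enriched in proprioceptive neurons of the muscle spindle. Dele1 is listed there under its older symbol 0610009O20Rik. The 4 genes, each with 1 probe set, were selected on measured values: per the file headers the list holds probe sets at least 5-fold higher in spindle neurons with a p-value below 0.08. They are 4 of the 570 distinct genes named on that list, which holds 626 probe sets. All of the spindle and tendon organ values below come from the contrast that chose them and are given as a description. Where counts of calls from a fit across all probe sets are printed for them, they stand beside the share over all probe sets and support nothing. Other probe sets of these genes could not be named here, because only the list pairs probe sets with genes.

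Proprioceptive neurons of the dorsal root ganglia (DRG) report muscle length through endings on muscle spindles (MS) and muscle tension through endings on Golgi tendon organs (GTO). All samples came from mice of both sexes on a mixed C57bl/129sv background, aged between postnatal days 7 and 10, which carried the same 3 transgenes: PV:Cre with Thy1-lsl-YFP, and Egr3::WGA-cherry. PV:Cre acts in cells that express parvalbumin, a marker of proprioceptors, and turns on YFP there, and Cherry follows Egr3. Cell sorting took Cherry+YFP+ neurons as MS and Cherry-YFP+ neurons as GTO, and the labels call both populations enriched rather than pure. Each of the 3 MS samples pooled about 1250 neurons and each of the 3 GTO samples about 725, over several sorts, and the RNA was amplified before 1 array was run per sample. The labels call the samples biological replicates; the animals in each pool are not given in the sources used here.

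Mitochondria make ATP by oxidising pyruvate and other fuels. Pyruvate enters through the pyruvate dehydrogenase complex, which PDK kinases switch off by phosphorylation and PDP phosphatases switch on again. Electrons then pass along the respiratory chain, in which complex I takes them from NADH and cytochrome c carries them to complex IV. Cytochrome c released into the cytosol also starts the caspase cascade. DELE1 was shown in human cells to carry word of mitochondrial damage to the cytosol, where it activates the kinase HRI (Eif2ak1) and thereby the integrated stress response, in which eIF2 alpha is phosphorylated and general translation slows.

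The promoters of 3 of the 4 genes are shown because respiratory chain promoters are known for sites of the factors NRF1 and CREB. The direction these genes share on the arrays was set by their selection and says nothing about shared regulation. Each window runs from 250 bases before the annotated start to 50 bases from it, taken from RefSeq on GRCm38.p6, and is written 5' to 3' on the strand of the gene. Where RefSeq gives several starts, the outermost is shown. Capitals mark matches to any of 8 motifs searched on both strands. Pdk2 lies on the minus strand at chr11:95041322-95041621, Cycs on the minus strand at chr6:50566520-50566819 and Ndufa7 on the plus strand at chr17:33824322-33824621. The Dele1 promoter is not shown.
Pdk2: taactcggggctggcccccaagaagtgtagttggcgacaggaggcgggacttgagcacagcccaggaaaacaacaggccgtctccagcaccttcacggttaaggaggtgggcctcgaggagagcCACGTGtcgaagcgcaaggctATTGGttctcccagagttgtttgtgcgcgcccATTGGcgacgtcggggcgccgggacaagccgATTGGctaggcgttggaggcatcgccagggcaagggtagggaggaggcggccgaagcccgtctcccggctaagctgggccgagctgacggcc
Cycs: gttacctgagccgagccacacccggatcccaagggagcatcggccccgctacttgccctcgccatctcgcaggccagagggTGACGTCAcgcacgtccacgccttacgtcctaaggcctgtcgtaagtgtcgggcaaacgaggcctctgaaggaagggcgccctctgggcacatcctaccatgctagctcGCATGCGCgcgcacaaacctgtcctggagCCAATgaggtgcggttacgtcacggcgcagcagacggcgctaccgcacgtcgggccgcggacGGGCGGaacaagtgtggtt
Ndufa7: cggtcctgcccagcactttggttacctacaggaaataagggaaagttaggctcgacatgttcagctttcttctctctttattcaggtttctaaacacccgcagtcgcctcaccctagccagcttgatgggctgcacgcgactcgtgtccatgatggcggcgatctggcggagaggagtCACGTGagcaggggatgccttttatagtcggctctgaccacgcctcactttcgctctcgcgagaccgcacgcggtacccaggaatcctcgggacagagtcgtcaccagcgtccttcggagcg

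The Cycs window held the NRF1 core, searched as GCATGCGC, beginning 60 bases before the start, and a full cyclic AMP response element (CRE), searched as TGACGTCA, beginning 169 bases before it. The NRF1 core occurred in 2.71% of 32851 promoter windows of the same length, in 3.52% of the 21263 windows of protein-coding genes, and in 15.1% of the 73 windows found for 68 of 83 respiratory chain genes, Cycs among them. The CRE occurred in 1.79%, 2.23% and 6.85% of these windows. Cycs also held a CCAAT box, searched as CCAAT, and a GC box, searched as GGGCGG, which occurred in 37.4% and 35.7% of all windows and in 41.1% and 39.7% of the respiratory chain windows. Pdk2 held 3 CCAAT boxes, all read on the opposite strand as ATTGG, and an E-box, searched as CACGTG. The window at the other annotated start of Pdk2 held no match to any of the 8 motifs. Ndufa7 held an E-box alone, 72 bases before its start, which also lay in the window at its other start, and E-boxes occurred in 7.15% of all windows. None of the 3 windows held the ETS core CCGGAAG, the estrogen-related receptor letters AAGGTCA or the EGR site GCGNGGGCG, which occurred in 8.86%, 4.72% and 5.55% of all windows and in 21.9%, 12.3% and 4.11% of the respiratory chain windows. The matches in these 3 windows did not overlap each other. They are letters in a window, and binding was not measured.

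**Figure D1:**
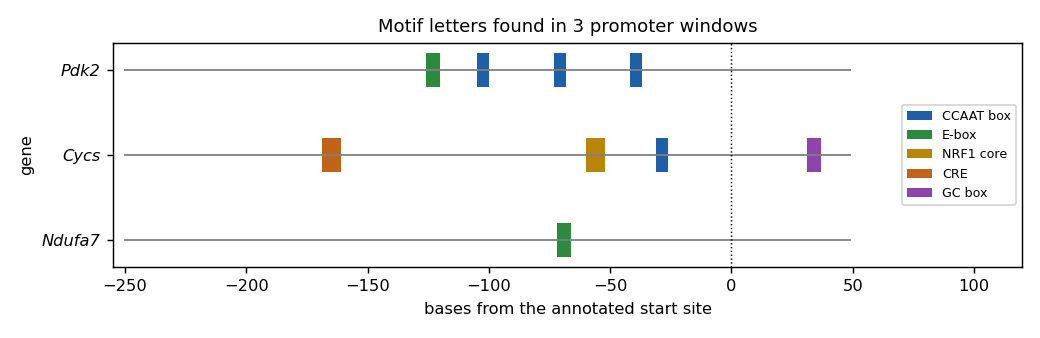
Motif matches in the promoter windows of Pdk2, Cycs and Ndufa7, by distance in bases from the annotated start site (dotted line, negative is upstream). Each coloured block is 1 match on either strand; Cycs holds 4 kinds of motif, Pdk2 holds 3 CCAAT boxes and an E-box, and Ndufa7 holds an E-box alone.

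Array signal differed between the groups. The upper quartile of the deposited log2 values was 6.78 to 6.86 on the MS arrays and 5.55 to 6.67 on the GTO arrays, with group means of 6.83 ± 0.04 and 6.14 ± 0.56 (SD, n = 3, two-sided exact permutation p = 0.1, the smallest that 3 against 3 arrays can give). Neurons per pool and array signal were both lower in GTO and cannot be told apart from the neuron class. In pooled RNA, fewer cells of a type and less RNA per cell cannot be told apart either. Values below log2 4, which covered 62.2% to 66.9% of the probe sets on an array, are treated here as not above background. The median log2 difference over all 16256 probe sets that reached log2 4 on at least 3 arrays was 0.31 in favour of MS.

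Dele1 (Entrez Gene 66839), the mitochondrial stress messenger, had the widest separation of the 4. It read 12.23 on MS array 1, 9.59 on MS array 2 and 10.34 on MS array 3 (log2), against 4.68, 4.59 and 4.52 for GTO arrays 1, 2 and 3. Every MS array lay far above every GTO array, and the GTO arrays were almost level with each other while the MS arrays were not. The MS mean was 10.72 ± 1.36 and the GTO mean 4.60 ± 0.08 (SD, n = 3), a log2 difference of 6.12, or 69.6-fold on the linear scale. The GTO arrays all read slightly above log2 4, so this fold is not written as a bound. They lay close to the level treated here as background, and the fold was 47.2 after quantile normalization. The lowest MS array exceeded the highest GTO array by 4.91 on the log2 scale. MS array 1 weighed most in the fold, which was 41.3 without it. In the authors' deposited table Dele1 had a fold of 69.6, which ranked 6 among the 626 listed probe sets, and a p-value of 0.00146.

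Pdk2 (Entrez Gene 18604), a pyruvate dehydrogenase kinase, had the smallest spread of the 4 over the MS arrays. It read 7.81 on MS array 1, 8.79 on MS array 2 and 8.32 on MS array 3 (log2), against 2.89, 3.55 and 2.47 for GTO arrays 1, 2 and 3. All GTO values lay below log2 4 and all MS values near log2 8. The MS mean was 8.31 ± 0.49 and the GTO mean 2.97 ± 0.54 (SD, n = 3). On the deposited scaling this is at least 19.8-fold higher in MS when the GTO level is taken as log2 4. The authors' deposited table gives a fold of 40.5 and a p-value of 0.000226, each ranking 19 of 626. Between the groups lay 97.6% of the sum of squares of its 6 values, against 93.8% for Dele1, 91.7% for Cycs and 62.0% for Ndufa7.

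The 1 listed probe set of Cycs (Entrez Gene 13063), the somatic cytochrome c gene, read low on the GTO arrays and moderate on the MS arrays. It read 6.05 on MS array 1, 7.81 on MS array 2 and 6.47 on MS array 3 (log2), against 2.82, 3.36 and 3.07 for GTO arrays 1, 2 and 3. The GTO values lay below log2 4, treated here as not above background. They do not give the level of Cycs transcripts in GTO neurons, and other probe sets of Cycs could not be named. The groups did not overlap, with 2.69 between the lowest MS and the highest GTO value, and MS array 2 stood above the other MS arrays. The MS mean was 6.78 ± 0.92 and the GTO mean 3.08 ± 0.27 (SD, n = 3). On the deposited scaling this is at least 6.85-fold higher in MS against log2 4. In the authors' deposited table its fold was 12.9 and its p-value 0.00263, which ranked 199 and 92 of 626.

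Ndufa7 (Entrez Gene 66416), an accessory subunit of complex I, was the 1 gene of the 4 whose groups overlapped. It read 8.45 on MS array 1, 8.01 on MS array 2 and 6.44 on MS array 3 (log2), against 2.24, 6.53 and 2.95 for GTO arrays 1, 2 and 3. GTO array 2 thus read above MS array 3, while GTO arrays 1 and 3 lay below log2 4. The MS mean was 7.63 ± 1.05 and the GTO mean 3.90 ± 2.30 (SD, n = 3), a log2 difference of 3.73. The linear fold of 13.3 moved to 32.9 without GTO array 2, to 7.45 without GTO array 1 and to 20.0 without MS array 3, and was 6.92 with all values below log2 4 set to 4. Its spread in GTO ranked 31 of 626 listed probe sets from the largest. In the authors' deposited table its p-value was 0.0630, which ranked 537 of 626.

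**Figure D2:**
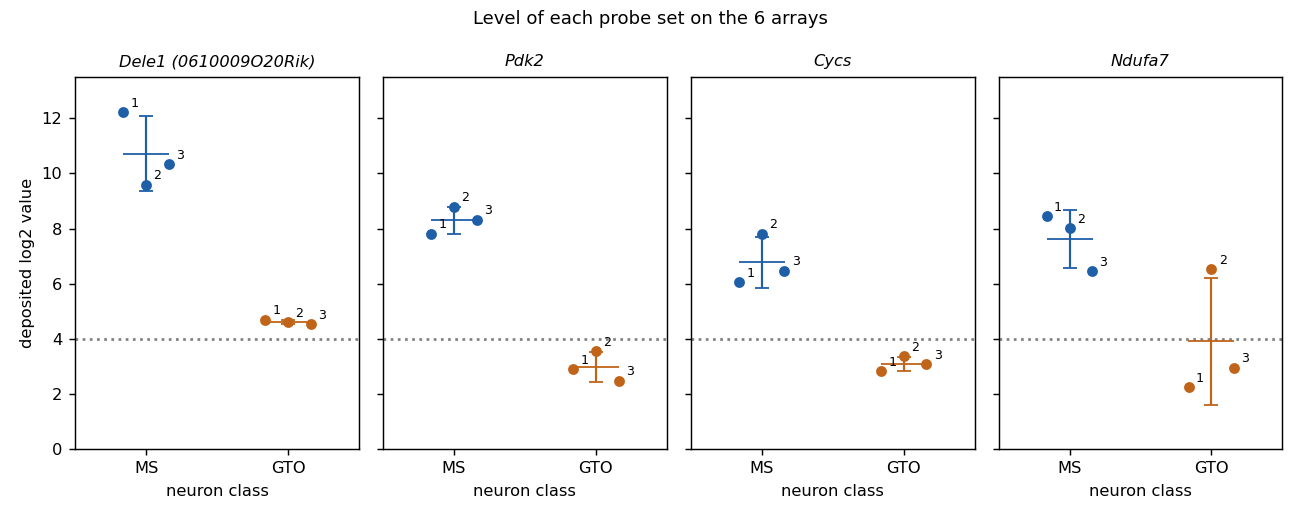
Deposited log2 value of each gene's probe set (vertical axis) on the MS arrays (blue) and the GTO arrays (orange), numbered by replicate. Horizontal bars and whiskers are the mean and SD of 3 arrays, and the dotted line is log2 4; MS and GTO points are apart for Dele1, Pdk2 and Cycs, and overlap for Ndufa7 through GTO array 2.

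Among the 4 genes, 3 had every MS array above every GTO array. So had 592 of the 626 listed probe sets, and 9.9% of all 16256 probe sets tested. Pdk2 and Cycs reached the filter for testing through their MS arrays alone. All 4 met the rule of the list, as they must, against 1.39% of all 45037 probe sets in that direction. In limma, fitted across the 16256 probe sets, 0 of the 4 passed an adjusted p of 0.05, which 0.0185% of all did. At an unadjusted p under 0.05 all 4 passed, against 7.97% of all. The choice of the genes used this contrast, so nothing is read from these shares.

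The rule that listed the 4 genes was applied again to the same arrays, so the counts below describe sensitivity to processing and support nothing. Dele1, Pdk2 and Cycs met at least 5-fold and p below 0.08 under 11 of 11 other treatments of the values. Ndufa7 met it under 2 of 11, with the values floored at log2 4 and without GTO array 2. Leaving out an array also leaves fewer values for the p. Without MS array 3 the fold of Ndufa7 rose to 20.0, yet its equal-variance p was 0.0868. Its p by the list's equal-variance rule rose from 0.0630 to 0.0922 after quantile normalization, and median centring also took it past the limit. For reference, the listed probe sets ran down to a deposited fold of 5.01 and up to a p-value of 0.0795 in the authors' deposited table. The nearest probe sets left out had a fold of 4.99983 or a p of 0.0801. The log2 difference stayed above the 5-fold limit for each of the 4 genes in each setting plotted, with 2.78 for Cycs on floored values the smallest.

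**Figure D3:**
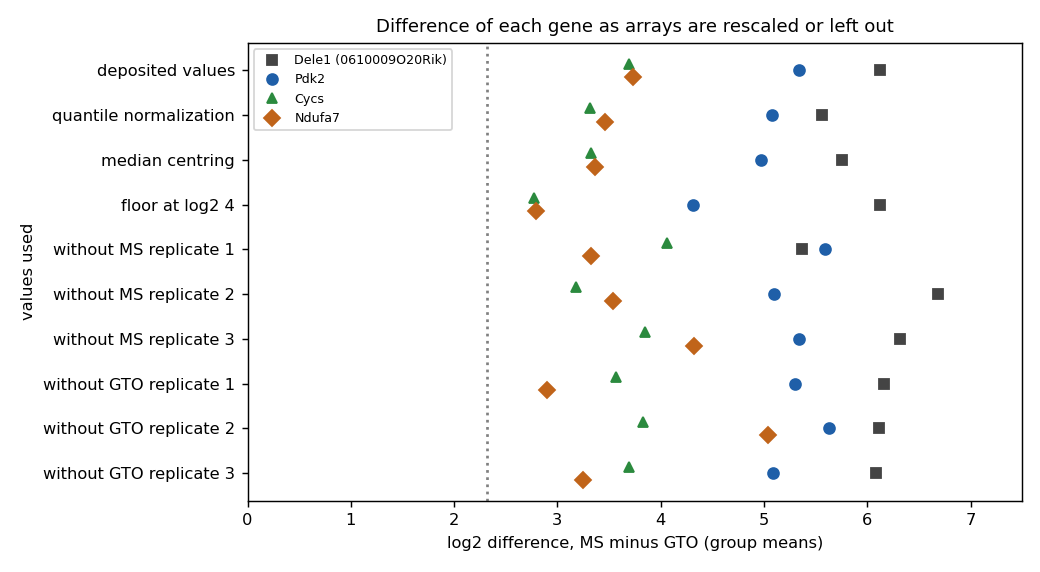
Log2 difference between MS and GTO group means (horizontal axis) of each gene for the deposited values, 3 other scalings or floors, and each array left out in turn (vertical axis). The dotted line is the 5-fold limit of the list; all points lie to its right, and Ndufa7 moves most, from 2.79 to 5.04.

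The order of the arrays was not the same for the 4 genes. On the deposited values GTO array 2 was the highest GTO array for Pdk2, Cycs and Ndufa7, whereas GTO array 1 was the highest for Dele1. For Pdk2 and Cycs this ranks values below log2 4, treated here as not above background. The order also moved with scaling. GTO array 3 was the highest for Dele1 after quantile normalization (5.40) and median centring (5.08), and for Cycs after median centring (3.63). Over the 626 listed probe sets GTO array 1 was the highest of its group in 51.6% and GTO array 2 in 26.2%. MS array 1 was the highest MS array for Dele1 and Ndufa7, and the lowest for Pdk2 and Cycs. Pdk2 and Cycs had the closest profiles of the 6 pairs, with a root mean square difference of 0.90 over the 6 arrays after each probe set's mean was subtracted (log2). The largest was 1.95, between Dele1 and Ndufa7. Of the 34 listed probe sets whose groups overlapped, 8, Ndufa7 included, had its form, with GTO array 2 the highest GTO array and MS array 3 the lowest MS array.

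Profiles over the 6 arrays were also compared with the 587 other listed probe sets that have 1 gene symbol. Closest to Dele1 were Pik3c3, a lipid kinase of autophagy (root mean square difference 0.68), the oxysterol-binding protein gene Osbp2 (0.68) and the alpha-catenin gene Ctnna1 (0.87), against a median of 1.87 over all. Osbp2 shared its high value on MS array 1, with 9.23 there and 6.39 and 7.41 on MS arrays 2 and 3. Closest to Pdk2 were Nfe2l2, the antioxidant-response factor NRF2 (0.42), the matrix protein gene Sparc (0.50) and Acsl1, which activates long-chain fatty acids (0.56), with a median of 1.55. Closest to Cycs were Rab11fip2, a partner of the recycling GTPase Rab11 (0.22), the sorting nexin gene Snx5 (0.27) and the kinase gene Vrk2 (0.31), with a median of 1.19. Closest to Ndufa7 were the small GTPase gene Arl5a (0.42), the phosphatase gene Ppm1j (0.44) and Rrm1, a subunit of ribonucleotide reductase (0.49), with a median of 1.79. These 3 were high on GTO array 2 as well, where they read 6.11, 9.78 and 7.16. All of these genes were chosen on the same arrays for being higher in MS, which brings their profiles together. The closest were then picked for likeness over these 6 arrays, so a shared high array follows from that choice and supports nothing.

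**Figure D4:**
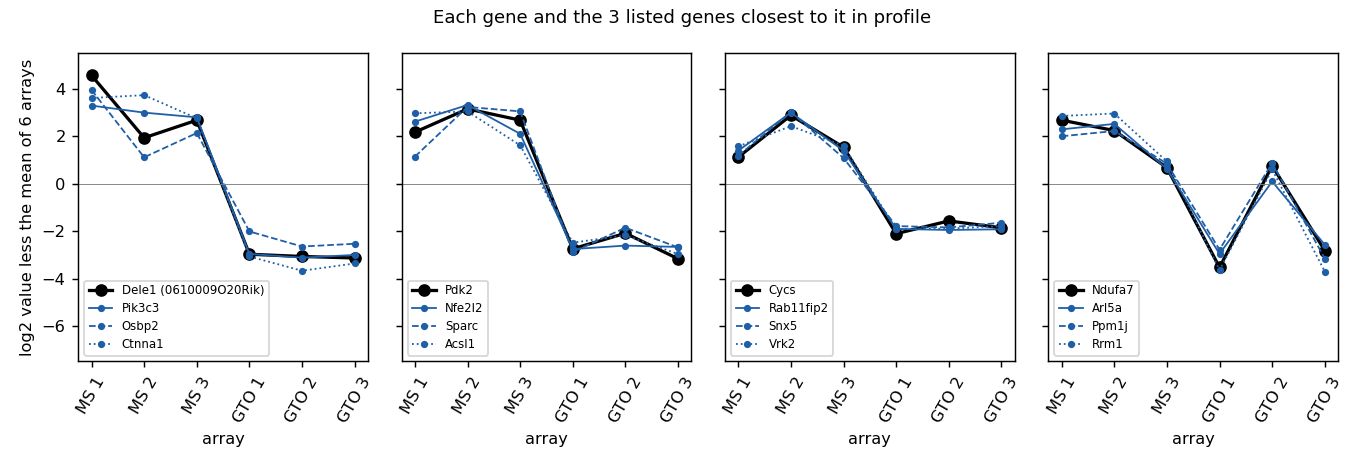
Log2 value less the probe set's mean over 6 arrays (vertical axis), by array (horizontal axis), for each gene (black) and the 3 listed genes closest to it (blue). The neighbours were picked for likeness over these 6 arrays, so shared high arrays follow from that choice. Those of Ndufa7 are high on GTO array 2, and those of Cycs are highest on MS array 2.

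Of the 189 genes reported from 11 lists of mitochondrial pathways, 11 stood on the deposited list, and 7 of these were genes other than the 4. In limma 0 of the 6 of these 7 that reached the filter passed the adjusted threshold, and 6 had an unadjusted p under 0.05, with the shares over all probe sets as given above. They too were chosen on these arrays, and a gene alike in both classes or higher in GTO could not stand on the list, so the genes not listed have no value here. The deposited list held 1.39% of all 45037 probe sets. Probe sets per gene could not be counted here, so no pathway count is read as enrichment or absence. The pyruvate dehydrogenase list had 3 of its 15 genes on the deposited list. Beside the kinase gene Pdk2, these were Pdhx, the component that binds the E3 enzyme, and Pdp1, the phosphatase that opposes the kinases. Pdhx read 6.66, 6.26 and 5.33 on the MS arrays and 3.29, 3.32 and 3.32 on the GTO arrays (log2). Pdp1 read 8.87, 7.28 and 6.83 on the MS arrays and 4.70, 6.77 and 4.26 on the GTO arrays. Kinase and phosphatase genes share a direction here because the list admits only genes higher in MS. Pdp1, like Ndufa7, was highest in GTO on array 2.

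The list of the integrated stress response and the DELE1 pathway had 3 of its 21 genes on the deposited list. Beside Dele1 these were Eif2ak2, the eIF2 alpha kinase PKR that senses double-stranded RNA, and Ppp1r15b, which directs a phosphatase to eIF2 alpha. Eif2ak2 read 7.71, 6.08 and 5.36 on the MS arrays and 3.06, 3.14 and 3.42 on the GTO arrays (log2). Ppp1r15b read 10.35, 9.99 and 8.68 on the MS arrays and 7.71, 3.72 and 3.41 on the GTO arrays. Its GTO array 1 stood far above the other 2 GTO arrays. The Dele1 GTO arrays were level on the deposited values, close to background, and read 4.64 to 5.40 after quantile normalization. Eif2ak1, which encodes the kinase that DELE1 activates, and Oma1, the protease that cuts DELE1 in human cells, were not among its named genes.

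Ndufa7 was the single listed gene of 37 complex I genes, and Cycs of 16 genes of cytochrome c and complex IV. No gene of complexes II and III (13 genes), complex V (17), the citric acid cycle (14) or glycolysis (17) was listed. Of 15 genes of mitochondrial apoptosis, which act before or after the release of cytochrome c, 2 were listed, and both encode inhibitors of cell death. Xiap, a caspase inhibitor, read 7.40, 8.12 and 8.60 on the MS arrays and 4.29, 3.12 and 5.49 on the GTO arrays (log2). Bcl2l1, which encodes the survival protein Bcl-xL, read 5.83, 5.44 and 3.48 in MS and 1.93 to 2.00 in GTO and did not reach the filter on low values. Of 11 biogenesis factors, 1 was listed. Tfb1m, which methylates mitochondrial ribosomal RNA, averaged 6.40 ± 1.15 over the MS arrays and 3.64 ± 0.26 over the GTO arrays (SD, n = 3).

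**Figure D5:**
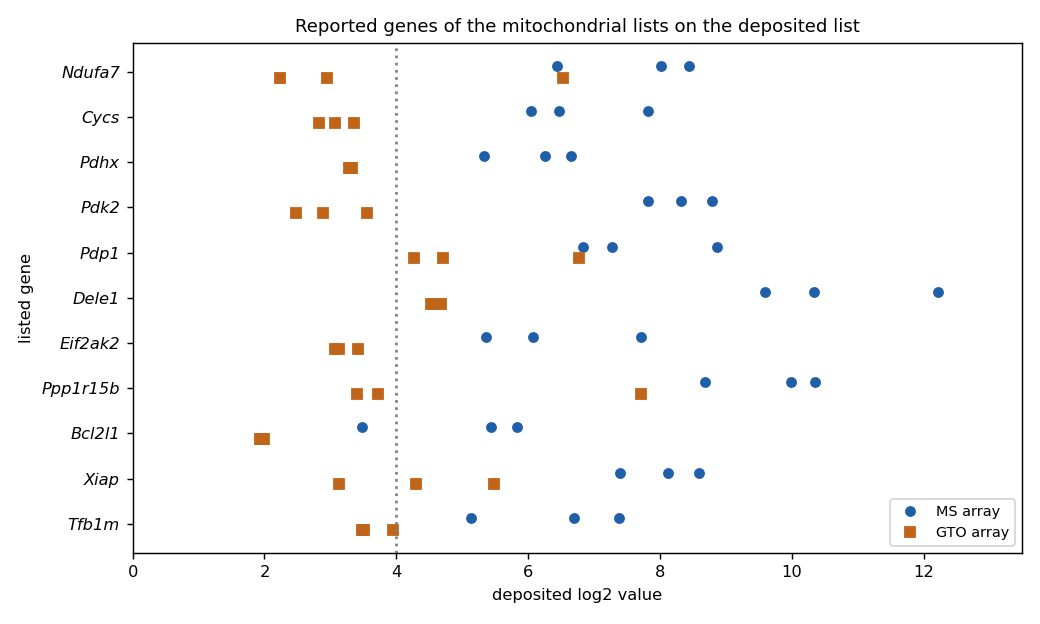
Deposited log2 value (horizontal axis) on each MS array (blue circles) and GTO array (orange squares) for the 11 reported genes of the mitochondrial lists that stand on the deposited list (vertical axis), with log2 4 dotted. All 11 were chosen for higher MS values; the groups overlap for Ndufa7 alone, and Pdp1 is the next closest.

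Single markers of other cell types, and of the sorted proprioceptors, stood on the same list as the 4 genes. Of 9 Schwann cell markers, Mbp, the myelin basic protein gene, was listed and read 5.98 to 7.18 on the MS arrays and 2.49 to 3.32 on the GTO arrays (log2). Of 9 markers of fibroblasts and vessels, Sparc was listed and read 7.23 to 9.32 in MS and 3.20 to 4.23 in GTO. Of 5 satellite glia markers, 0 were listed. Of 6 proprioceptor markers, Whrn, the whirlin gene, was listed and read 3.15 to 6.61 in MS and 2.28 to 2.35 in GTO. Its probe set did not reach the filter on low values. Egr3, which Cherry follows, was among the 6 and was not listed by name. The markers not listed could not be named on the arrays, so neither the labelled cell type nor the full marker lists could be checked. The part of other cells in the values of the 4 genes was not tested.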

How the data were processed

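RNA of 3 MS and 3 GTO samples was measured on 1 array each. The values the authors deposited are log2, for 45101 probe sets. The submitters' processing notes name GCRMA, which corrects background by probe sequence, and Partek. The deposited arrays did not share quantiles: their upper quartiles ran from 5.55 to 6.86. The authors' deposited list gives each probe set's p-value and its MS over GTO fold, at the limits stated in the file headers; the columns of F and sum of squares scores deposited by the authors were not used. Symbols were updated by Entrez identifier with RefSeq (GRCm38.p6). No array annotation or genome build is given in the sources used here.

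After 64 control probe sets were left out, the 16256 with log2 4 or more on at least 3 arrays were fitted with limma 3.58.1 (R 4.3.3, eBayes, two-sided, no covariate) and adjusted by Benjamini-Hochberg at 0.05. The model was tested on simulated data. The simulated noise was normal with equal spread in both groups, so this checks the code and not the calls reported here. The list's rule was recomputed with the equal-variance p on log2 values and returned the same number of probe sets, 626; fold deviated by at most 2.1e-05. Where all GTO arrays lay under log2 4, the fold is a lower bound against log2 4 on the deposited scaling only. The floor was not combined with quantile normalization or median centring, which lowered the MS values of Pdk2 and Cycs. The number of arrays limits precision.

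The genes and lists were chosen with earlier results of these data known. Named genes were the 4, the 3 closest listed profiles to each, and every listed gene of the pathway and marker lists. A result that the rule would name is not reported here. Alternatives were array scaling, floor, filter, trend, Welch p, replicate block and each array left out. The replicate numbers were checked for pairing: deviations from the group means correlated at -0.06, 0.10 and 0.11 between same-numbered samples. Between differently numbered samples they correlated at -0.17 to 0.09. With 3 arrays per group this cannot exclude pairing. The numbers were not taken as pairs in the main fit, and the replicate block is given as an alternative.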

Additional observations from a re-analysis of the deposited data

How the results depend on the processing

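The log2 differences of the 4 genes kept their direction in every setting run. Leaving out each array in turn gave 5.37 to 6.68 for Dele1, 5.09 to 5.63 for Pdk2, 3.18 to 4.06 for Cycs and 2.90 to 5.04 for Ndufa7. Quantile normalization gave 5.56, 5.07, 3.31 and 3.46 in that order and median centring 5.75, 4.97, 3.32 and 3.36. They shifted the median of all tested probe sets from 0.31 to 0.02 and to -0.06. The number of the 4 genes with no overlap between groups was 3 or 4 in all of these, and 4 without GTO array 2 or MS array 3. Leaving out an array can only keep or raise this number, whatever the probe sets. The share over all probe sets was not computed in these settings, so nothing is read from the number.

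The count of probe sets past the adjusted threshold in limma was 3 and depended on the setting. It was 12 with no filter, 11 with the filter at log2 6, and 0 with median centring, the floor at log2 4 or the intensity trend, where 1214, 1263 and 1324 had an unadjusted p under 0.05. It was 0 whichever array was left out, and an unadjusted p under 0.05 then held for 796 to 1786. With the replicate number as a block it was 0, with 1401 at an unadjusted p under 0.05, and the list's rule gave 471 probe sets in place of 626. Under the block none of the 4 genes passed the adjusted threshold, as without it. Ndufa7 no longer met the list's rule, while Dele1, Pdk2 and Cycs still did. The unadjusted limma p of the 4 genes was not recorded under the block. Under that rule quantile normalization gave 400 probe sets for MS and 128 for GTO, against 626 and 63, and median centring 429 and 125. Leaving out each array gave 438 to 936 for MS and 40 to 151 for GTO. Of the 4 genes, Pdk2 passed the adjusted threshold in limma with the filter at log2 6, which it reached through its MS values alone, and none passed under any other setting run. The causes were not tested.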
